A study of Mus musculus with 4 samples.

Results

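The genes described here are the WNT ligands, their receptors and secreted antagonists, and the core components that carry the signal to the nucleus. Membership was set by gene symbol: every probe set with a single symbol that names a Wnt, Fzd, Sfrp, Dkk, Rspo or Lgr family member, together with Lrp5, Lrp6, Frzb, Wif1, Axin1, Axin2, Ctnnb1, Tcf7l1, Tcf7l2 and Lef1, with Wnt4 and Rspo1 left out. The choice gave 48 genes read by 74 probe sets, out of 12393 named genes and 22690 probe sets on the array. Tcf7, which the choice also names, is not analysed here.

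Whole mammary glands were taken from nulliparous FVB females, and their RNA was measured on 4 Affymetrix arrays. The groups were MMTV-PPARδ mice on chow with GW501516, MMTV-PPARδ mice on standard chow, wild-type littermates on chow with GW501516, and wild-type littermates on standard chow, with the agonist given for 1 week. GW501516 activates the nuclear receptor PPARδ, and its content in the chow is given as 0.005% in the protocol and as 0.001% in a treatment tag of the labels. The PPARδ transgene is driven by the mouse mammary tumour virus promoter, which is active mainly in mammary epithelium, whereas whole gland RNA also comes from fat, stroma, vessels and immune cells. Each array read a single pool, made from 5 mice of the group. There is therefore no replicate spread, no test and no p-value for any difference below, and the values describe these 4 pools.

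WNT proteins are secreted, lipid-modified ligands that bind Frizzled receptors on neighbouring cells. With the co-receptors Lrp5 or Lrp6 they stop the Axin-containing complex from destroying β-catenin, which then works with the TCF and LEF transcription factors; other ligands, such as Wnt5a, act mostly without β-catenin on cell polarity and movement. R-spondins, through LGR receptors, raise the sensitivity of a cell to WNT, while the SFRP, Frzb, Wif1 and Dickkopf proteins hold the signal back outside the cell. In the mammary gland the pathway takes part in ductal branching and in keeping basal stem cells, and Wnt1 was first found as a gene activated by mouse mammary tumour virus in mammary tumours.

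The differences below come down to a few genes, and the DNA before the start of 3 of them is shown so that it can be read beside their values. Frzb and Sfrp2 are the measured antagonists that were at least 2-fold higher on GW501516 in a genotype, and Wnt5b is the measured ligand with the widest range over the arrays. The sequences are the 250 bases before a RefSeq start in GRCm38.p6, 5′ to 3′ on the gene's own strand. Capitals mark matches to the letters searched, which were AGGTCANAGGTCA (a PPAR response element of the direct repeat kind), AGGTCA (its half-site, contained in it) and CTTTGAT or CTTTGAA (cores bound by TCF and LEF), on both strands.
Frzb (chr2:80447397-80447646, minus strand): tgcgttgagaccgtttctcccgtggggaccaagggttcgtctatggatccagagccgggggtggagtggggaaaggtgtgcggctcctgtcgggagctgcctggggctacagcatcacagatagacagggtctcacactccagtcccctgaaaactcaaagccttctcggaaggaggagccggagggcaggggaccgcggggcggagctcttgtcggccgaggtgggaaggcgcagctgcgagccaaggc
Sfrp2 (chr3:83766071-83766320, plus strand): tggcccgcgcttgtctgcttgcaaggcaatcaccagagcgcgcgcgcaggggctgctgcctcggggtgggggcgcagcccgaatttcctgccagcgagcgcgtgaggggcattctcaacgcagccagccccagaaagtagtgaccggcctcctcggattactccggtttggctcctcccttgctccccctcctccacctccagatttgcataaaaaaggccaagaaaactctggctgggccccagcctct
Wnt5b (chr6:119449387-119449636, minus strand, the one of its 3 listed starts with a match): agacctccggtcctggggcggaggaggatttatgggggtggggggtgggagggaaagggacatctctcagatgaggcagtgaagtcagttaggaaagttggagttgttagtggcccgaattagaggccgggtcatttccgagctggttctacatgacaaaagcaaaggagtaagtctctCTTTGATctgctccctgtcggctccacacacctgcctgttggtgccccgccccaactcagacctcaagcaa
RefSeq start windows were matched for 31 of the 48 genes. In the Frzb and Sfrp2 windows none of the letters searched was found, and in the Wnt5b window CTTTGAT lay with its first base 71 bases before the start. Over all 32851 windows of this length, AGGTCANAGGTCA was in 0.0335%, AGGTCA in 14.0%, CTTTGAT in 3.21% and CTTTGAA in 4.46%. These matches describe letters in a short window and no site.

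Ppard, the transgene's own gene, read 4224 in MMTV-PPARδ glands on GW501516 and 1943 in MMTV-PPARδ glands on chow, against 1.5 and 2.1 in wild-type glands on GW501516 and on chow. Both wild-type values lay below the floor of 20.5 used here, and the probe set was kept for its high mean, which the transgenic arrays set. A weakly binding probe set can also read low, so these values do not show that wild-type glands lack the receptor. Luminal epithelial markers were measured for 14 of 16 genes on the array and fibroblast and matrix markers for 14 of 14. The MMTV-PPARδ chow array stood apart in its control probe sets. The spiked bacterial transcript BioB read 19.3 to 41.6 over its 6 probe sets there and 261.0 to 519.0 on the other arrays, and the 3 Gapdh controls read 2986 to 4001 there and 6753 to 12274 on the others. Of the comparisons below, the transgene on chow and GW501516 in MMTV-PPARδ mice both use that array, with opposite sign. The transgene on GW501516 and GW501516 in wild type do not.

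Where several probe sets read a gene, the brightest on average was kept. Intensities below 20.5, the 25th percentile of the table, were set to that floor, and a gene counted as measured if it reached the table's median of 139.0 on at least 1 array. Most WNT ligands did not reach that level in the whole gland. Of 18 ligands, 3 were measured, Wnt2, Wnt5a and Wnt5b. Wnt6 stayed between 87.8 and 108.7, Wnt7b between 63.7 and 92.2, Wnt11 between 36.5 and 77.2 and Wnt10a between 30.8 and 57.3. Wnt3a reached 20.5 at most, and the other 10 (Wnt1, Wnt2b, Wnt3, Wnt7a, Wnt8a, Wnt8b, Wnt9a, Wnt9b, Wnt10b and Wnt16) were below the floor on every array.

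Of the 11 receptors, 5 were measured, Fzd2, Fzd4, Fzd6, Fzd7 and Lrp6, while Fzd1, Fzd3, Fzd5, Fzd8, Fzd9 and Lrp5 were not. None of the 3 genes of the R-spondin and LGR group was measured. Of the 10 secreted antagonists, 6 were measured (Sfrp1, Sfrp2, Sfrp4, Frzb, Wif1 and Dkk3) and Dkk1, Dkk2, Dkk4 and Sfrp5 were not. Axin1, Axin2 and Ctnnb1 were all measured, as were Tcf7l1 and Tcf7l2, and Lef1 was not. A low intensity on this platform can come from little RNA or from a weakly binding probe set, so that the genes below 139.0 are named without differences.

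**Figure D1:**
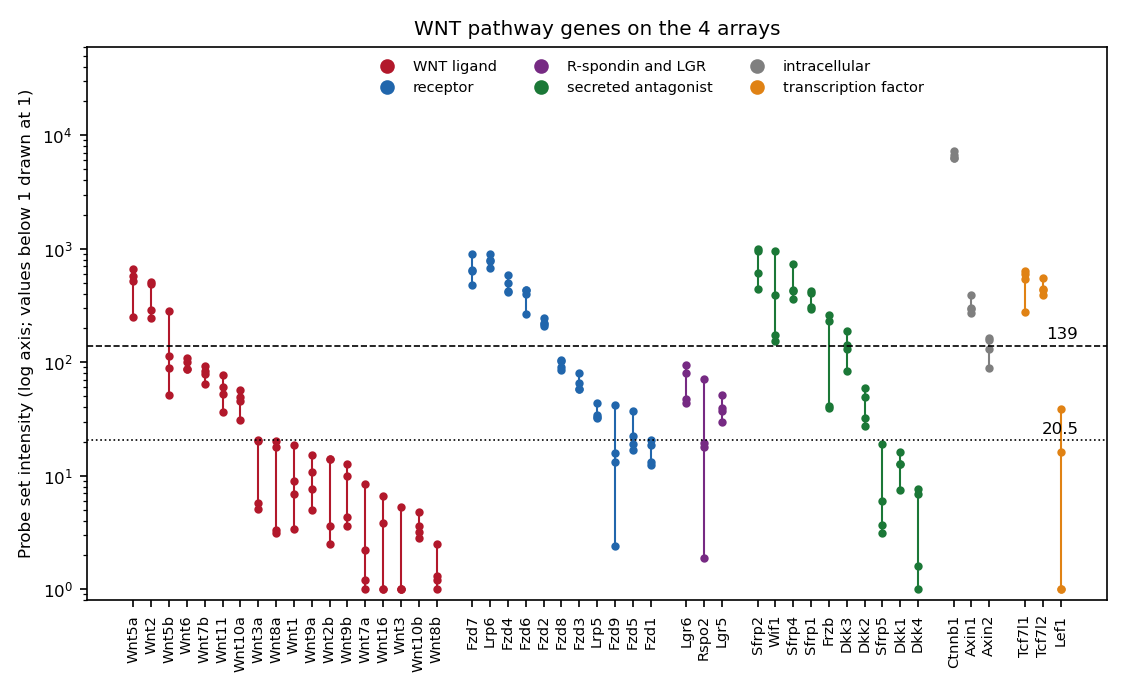
Intensity of the 48 genes on a log axis, each point 1 of the 4 arrays and each gene shown by its kept probe set, in order of role; the dashed line is the level of 139 that at least 1 array had to reach and the dotted line the floor of 20.5. Of the 48, 19 reached 139, among them 3 of 18 ligands and 6 of 10 secreted antagonists.

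Of the 19 measured genes, 9 differed by at least 2-fold in at least 1 of the 4 comparisons that change a single factor, a share of 47.4%, against 16.0% of the 7835 measured genes on the array. These were Wnt2, Wnt5a, Wnt5b, Frzb, Sfrp2, Sfrp4, Wif1, Dkk3 and Tcf7l1. Some of them entered the measured set only through the arrays on which they were high, Wnt5b through the MMTV-PPARδ chow array and Frzb through the GW501516 arrays, so the share is a description and supports nothing about the pathway. When only the 2 comparisons without the MMTV-PPARδ chow array were used, a choice made after seeing the data, 4 of 19 were at least 2-fold apart (Wnt5b, Frzb, Sfrp2 and Wif1), against 9.53% of all measured genes. Technical scatter was read from genes with several measured probe sets: the kept set and the median of the others differed with an SD of 0.35 to 0.45 (log2 difference, 2534 genes) in the 4 comparisons. Probe sets share their array, so this SD holds no scatter between arrays.

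**Figure D2:**
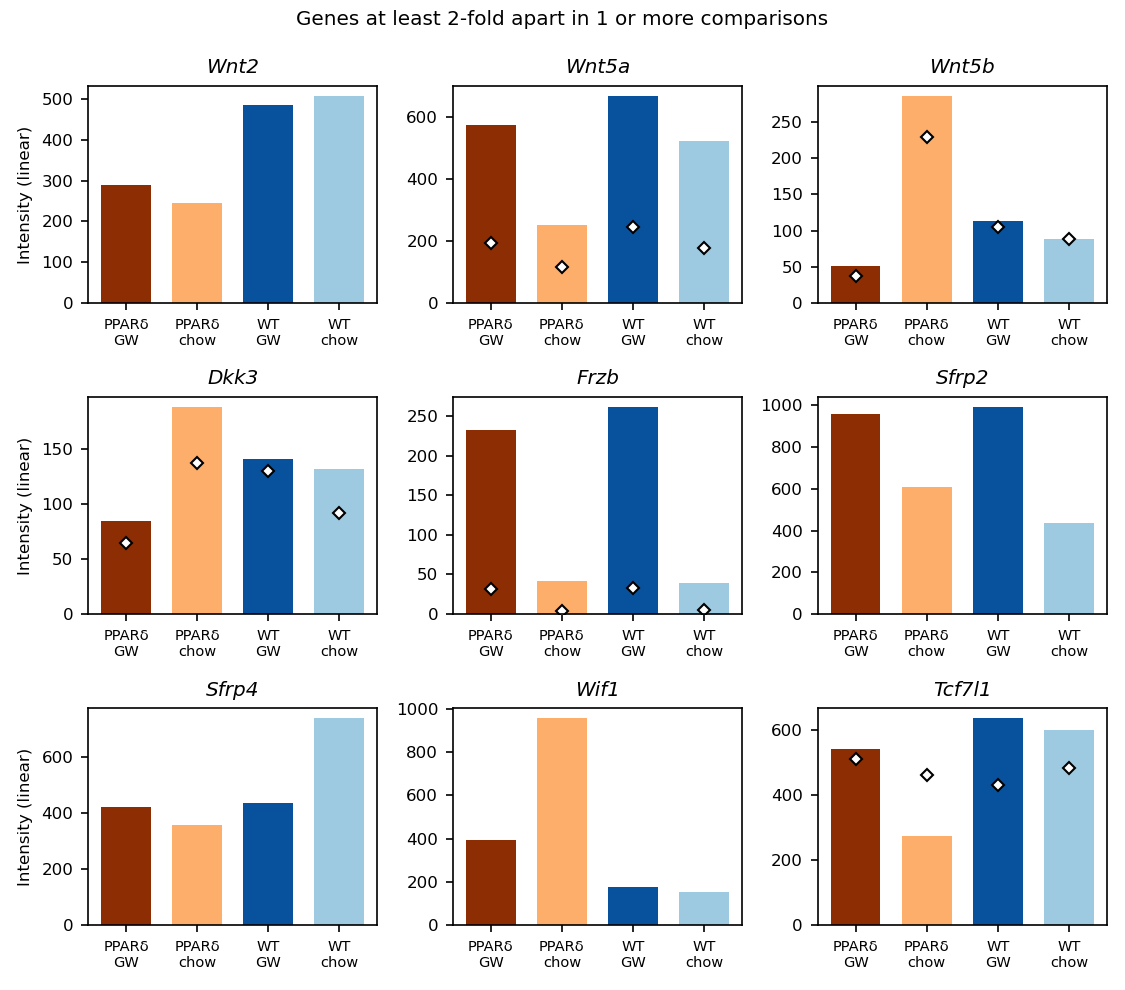
Intensity on a linear scale of the 9 genes at least 2-fold apart in a comparison; bars are the kept probe set on the arrays of MMTV-PPARδ on GW501516, MMTV-PPARδ on chow, wild type on GW501516 and wild type on chow, and open diamonds are other probe sets of the same gene. Frzb is high on both GW501516 arrays, Wif1 and Wnt5b are highest on the MMTV-PPARδ chow array, and the probe sets of Tcf7l1 disagree.

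Wnt5b, a ligand that mostly signals without β-catenin, had intensities of 51.8 in MMTV-PPARδ glands on GW501516, 285.5 in MMTV-PPARδ glands on chow, 113.8 in wild type on GW501516 and 88.9 in wild type on chow. The MMTV-PPARδ pools held its lowest and its highest value, with the wild-type pools in between. It was 3.21-fold higher in MMTV-PPARδ than in wild type on chow and 2.20-fold lower on GW501516, and among MMTV-PPARδ pools it was 5.51-fold lower on GW501516 than on chow. In wild type the agonist difference was 1.28-fold, upward.

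A further Wnt5b probe set read 37.4 and 229.2 in MMTV-PPARδ glands on GW501516 and on chow, against 105.0 and 88.8 in wild type on GW501516 and on chow. It had the same order of arrays. The ID of the kept set ends in _x_at, which marks sets that can bind other transcripts, and that of the further set in _a_at, which marks sets that match several transcripts of a gene. The downward difference on GW501516 became -0.68 (log2) with a floor at the 40th percentile of all values.

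Wnt5a, its close relative and the best known ligand of the branch without β-catenin, had intensities of 574.3 and 252.7 in MMTV-PPARδ glands on GW501516 and on chow, and of 667.5 and 524.7 in wild type on GW501516 and on chow. The MMTV-PPARδ chow pool was the low one. It lay 2.08-fold below wild type on chow, and the MMTV-PPARδ pool on GW501516 lay 2.27-fold above it. The other probe set gave the same order with smaller log2 differences, -0.58 for the transgene on chow and 0.73 for GW501516 in MMTV-PPARδ mice. The mean over both sets gave -0.82 and 0.96, below 2-fold.

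Wnt2, a ligand of the β-catenin branch, separated the genotypes more than the diets. Its intensity was 288.3 in MMTV-PPARδ and 486.9 in wild type on GW501516, and 245.1 in MMTV-PPARδ and 507.0 in wild type on chow. It was lower in the transgenic pool on both diets, by 2.07-fold on chow and by 1.69-fold on GW501516, and within a genotype the agonist difference was 1.18-fold or less.

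Fibroblast and matrix markers were also low in the MMTV-PPARδ chow pool, where Wnt5a and Wnt2 had their lowest values. The summed intensity of the 14 markers was 62330 in MMTV-PPARδ against 93207 in wild type on chow, and 87058 against 90155 on GW501516. Their median log2 difference was -0.61 on chow, with 4 of 14 at least 2-fold lower (Col1a1, Col5a1, Col6a3 and Fn1), against 3.70% of all measured genes. It was -0.09 on GW501516, with none at 2-fold. On GW501516, where that list differed by -0.09, Wnt2 had a log2 difference of -0.76 and Wnt5a of -0.22. White adipocyte markers had median log2 differences of -0.29 on GW501516 and -0.47 on chow, with none of 10 at 2-fold. In whole tissue fewer cells of a type and less RNA per cell cannot be told apart. The part of the fibroblast and adipocyte markers in the Wnt2 and Wnt5a values was not tested.

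None of the 5 measured receptors differed by 2-fold in any of the 4 comparisons by its kept probe set. Fzd7, a Frizzled studied in mammary stem cells, came nearest. It read 901.6 in MMTV-PPARδ and 477.9 in wild type on chow, 1.89-fold higher, and 645.7 in MMTV-PPARδ and 638.1 in wild type on GW501516. Fzd6, known from planar polarity in skin and hair, read 432.4 and 432.3 in MMTV-PPARδ on GW501516 and on chow, against 403.5 and 268.5 in wild type, so that the wild-type chow pool was the low one. Its dimmer probe set read 42.3 in MMTV-PPARδ and 12.3 in wild type on chow, a log2 difference of at least 1.05 against the floor. Fzd4, which also serves the ligand Norrin in blood vessels, was lower in MMTV-PPARδ than in wild type on both diets, by 1.43-fold on GW501516 and 1.17-fold on chow. Lrp6, the co-receptor of the β-catenin branch, stayed between 678.8 and 891.2, and Fzd2 between 210.0 and 243.6. Fzd9, below the measured level, read 42.0 in MMTV-PPARδ on GW501516 and was below the floor on the other 3 arrays.

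The R-spondin and LGR genes stayed below the measured level. Lgr6, a receptor known from stem cells of skin and mammary gland, read 44.1 and 94.8 in MMTV-PPARδ glands on GW501516 and on chow, and 80.9 and 47.9 in wild-type glands on GW501516 and on chow. Lgr5, a stem cell marker and itself a β-catenin target, lay between 29.9 and 51.2. Rspo2, a secreted enhancer of WNT, read 17.8 and 1.9 in MMTV-PPARδ on GW501516 and on chow, and 19.5 and 71.5 in wild type on GW501516 and on chow, so that it was above the floor only in the wild-type chow pool.

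Among the secreted antagonists, Frzb had the widest separation between diets. Frzb binds WNT ligands through a domain like that of the Frizzled receptors. Its intensity was 233.0 on GW501516 and 41.5 on chow in MMTV-PPARδ glands, and 261.4 on GW501516 and 39.7 on chow in wild-type glands. Both agonist pools were high and both chow pools low, with 1.12-fold or less between the genotypes on either diet. The agonist difference was 5.61-fold in MMTV-PPARδ and 6.58-fold in wild type, upward in both. These 2 comparisons share no array.

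The other Frzb probe set was dimmer and also read higher on GW501516, with 31.7 on GW501516 and 3.4 on chow in MMTV-PPARδ and 32.9 on GW501516 and 5.7 on chow in wild type. Both chow values lay below the floor, so the difference is only a bound there and the chow arrays have no order. Averaging both sets after the floor gave log2 differences of 1.56 in MMTV-PPARδ and 1.70 in wild type, still above 2-fold.

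Several marker lists differed between the diets as Frzb did, or the opposite way. All 16 of 16 muscle genes were at least 2-fold higher on GW501516 in both genotypes, against 3.98% of all measured genes in MMTV-PPARδ and 3.18% in wild type. Their summed intensity was 125393 on GW501516 and 35762 on chow in MMTV-PPARδ, and 131358 on GW501516 and 14335 on chow in wild type. Between the chow pools, the muscle list differed by a median of 1.59 (log2, MMTV-PPARδ over wild type). Of its 16 genes, 14 were at least 2-fold higher there, against 5.46% of all measured genes. Frzb differed by 0.06 between the chow pools, at the low intensities of 41.5 and 39.7 against a floor of 20.5. The part of muscle tissue in the Frzb value was not tested.

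Milk genes were at least 2-fold higher on GW501516 for 9 of 12 in MMTV-PPARδ and 8 of 12 in wild type, with medians of 3.10 and 1.36 (log2). Their summed intensity was 123501 on GW501516 and 46995 on chow in MMTV-PPARδ, and 49958 on GW501516 and 19019 on chow in wild type. T cell markers were at least 2-fold lower on GW501516 for 8 of 9 in each genotype, with medians of -2.12 in MMTV-PPARδ and -3.93 in wild type. B cell markers were lower for 6 of 6 in each, with medians of -2.83 and -3.77, and Pax5 of that list was below the floor on every array. Their summed intensity was 159.8 on GW501516 and 1717 on chow in MMTV-PPARδ, and 206.6 on GW501516 and 3325 on chow in wild type. The part of the milk, T cell and B cell lists in the Frzb and Sfrp2 values was not tested.

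Sfrp2, a secreted Frizzled-related protein made by stromal cells, was the other measured antagonist at least 2-fold higher on GW501516, which it was in wild type. It read 955.8 on GW501516 and 609.7 on chow in MMTV-PPARδ, and 990.0 on GW501516 and 437.9 on chow in wild type. The difference was 2.26-fold in wild type and 1.57-fold in MMTV-PPARδ. Sfrp1, its close relative, was higher on GW501516 by 1.44-fold in wild type and 1.33-fold in MMTV-PPARδ by its brightest probe set, and its 3 other probe sets gave log2 differences from -0.12 to 0.87 in MMTV-PPARδ and from 0.24 to 0.39 in wild type. Fibroblast and matrix markers as a list differed by a median of 0.44 for GW501516 in MMTV-PPARδ and of -0.16 in wild type, where Sfrp2 had a log2 difference of 1.18. The part of the fibroblast markers in the Sfrp2 values was not tested.

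Sfrp4, another member of that family, followed another order. It read 422.0 in MMTV-PPARδ and 436.8 in wild type on GW501516, and 359.1 in MMTV-PPARδ and 739.6 in wild type on chow. The wild-type chow pool was the high one, 2.06-fold above MMTV-PPARδ on chow, and the other 3 arrays lay between 359.1 and 436.8. GW501516 in wild type was lower by 1.69-fold.

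Wif1, a WNT-binding inhibitor, was high in the transgenic pools. It read 391.5 in MMTV-PPARδ and 173.7 in wild type on GW501516, and 956.0 in MMTV-PPARδ and 152.8 in wild type on chow. Both transgenic values lay above both wild-type values. The transgene difference was 6.26-fold on chow and 2.25-fold on GW501516, and the MMTV-PPARδ pool on GW501516 lay 2.44-fold below that on chow, while in wild type the agonist difference was 1.14-fold upward. Wif1 was read by a single probe set, whose ID ends in _a_at, so that no other set of the gene bears on these values.

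Some epithelial markers were also higher in the transgenic pools, and others were not. Luminal markers had a median log2 difference of 0.84 on chow, with 6 of 14 at least 2-fold higher, and of 0.51 on GW501516, with 2 of 14. Basal markers had medians of 0.79 on chow and 0.19 on GW501516, with 4 of 10 and 1 of 10 at least 2-fold higher. The basal keratin gene Krt14 had log2 differences of 3.07 on GW501516 and 3.50 on chow, while on GW501516 Krt15 had -0.66 and Krt5 -0.51. The luminal genes with the largest log2 differences on chow were Muc1 (2.91), Ehf (2.56), Elf5 (2.48) and Cdh1 (2.01). On GW501516 Muc1 had 2.87, Ehf 0.73, Elf5 2.33 and Cdh1 -0.16. The luminal keratin genes Krt7 and Krt19 were lower on chow, with -0.81 and -0.31. The summed luminal intensity was 39789 in MMTV-PPARδ and 27339 in wild type on GW501516, and 34874 in MMTV-PPARδ and 24112 in wild type on chow. The summed basal intensity was 16662 in MMTV-PPARδ and 13168 in wild type on GW501516, and 18782 in MMTV-PPARδ and 11878 in wild type on chow. The estrogen receptor gene Esr1, on the luminal list, was below the floor on every array. Milk genes were at least 2-fold higher in MMTV-PPARδ for 9 of 12 on GW501516, and for 7 of 12 on chow with 1 lower. Cell cycle markers were at least 2-fold higher for 5 of 11 on GW501516 and 4 of 11 on chow, with none lower by 2-fold. Their medians were 0.92 and 0.87 (log2). Of all measured genes, 2.82% were at least 2-fold higher on GW501516 and 5.46% on chow. The part of these lists in the Wif1 and Wnt5b values was not tested.

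Dkk3, a divergent Dickkopf protein, read 84.4 and 187.7 in MMTV-PPARδ on GW501516 and on chow, and 141.1 and 132.0 in wild type on GW501516 and on chow. The MMTV-PPARδ pools again held the lowest and the highest value. The agonist difference there was 2.22-fold downward by this probe set and -1.09 (log2) by the other, against 1.07-fold upward in wild type.

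**Figure D3:**
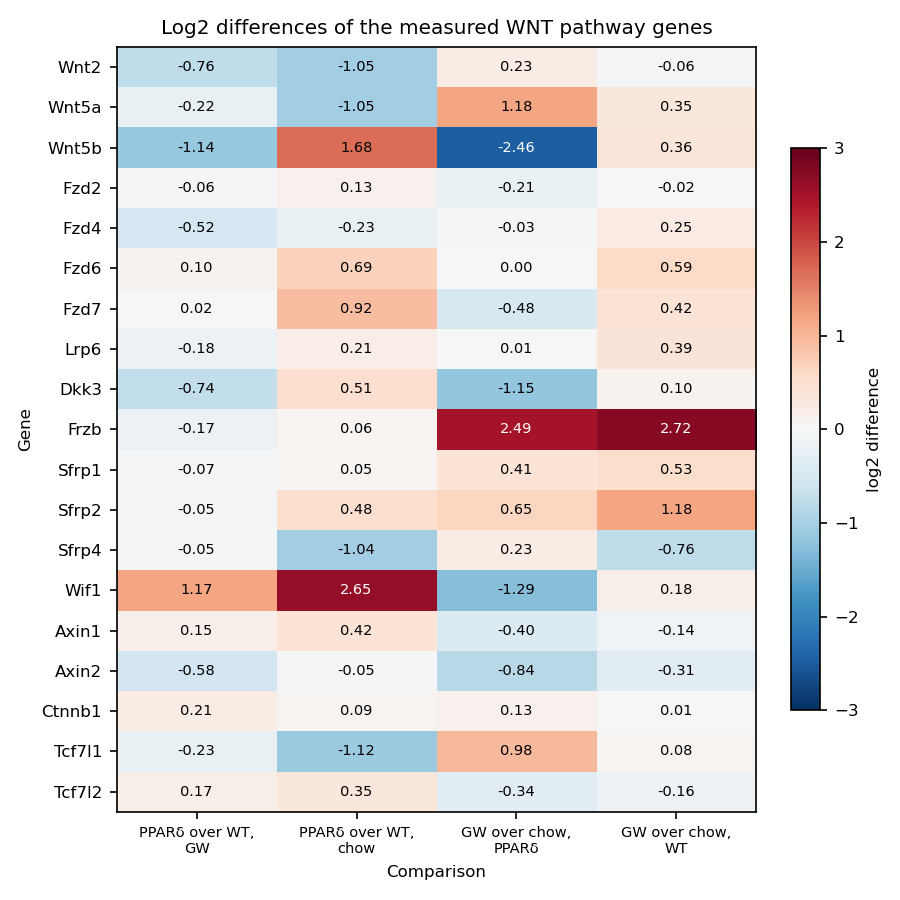
Log2 difference of the 19 measured genes (rows) in the 4 comparisons (columns), red for higher and blue for lower in the group named first, with the value in each cell. Frzb has 2.49 and 2.72 for GW501516 over chow in MMTV-PPARδ and in wild type, and Wif1 has 1.17 and 2.65 for MMTV-PPARδ over wild type on GW501516 and on chow.

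Inside the cell, Ctnnb1, the β-catenin gene, stayed below 2-fold in each of the 4 comparisons by all 3 of its probe sets. The brightest read 7302 and 6684 in MMTV-PPARδ on GW501516 and on chow, and 6301 and 6272 in wild type on GW501516 and on chow, a range of 1.16-fold. Another set read 846.7 and 1161 in MMTV-PPARδ on GW501516 and on chow, and 832.5 and 799.8 in wild type on GW501516 and on chow, with log2 differences of 0.54 for the transgene on chow and -0.46 for GW501516 in MMTV-PPARδ. The protein is regulated by degradation, which RNA does not show. Axin1, the scaffold of the destruction complex, lay between 269.1 and 395.5. Axin2, a scaffold that is also a standard feedback target of β-catenin, read 88.6 and 158.5 in MMTV-PPARδ on GW501516 and on chow, and 132.2 and 163.9 in wild type on GW501516 and on chow. By this probe set Axin2 was lower on GW501516 in both genotypes, by 1.79-fold in MMTV-PPARδ and by 1.24-fold in wild type. The chow pools differed by 1.03-fold. Axin2 reached the measured level only on the chow arrays, where it was high, so its lower values on GW501516 are a description only. Its other probe set was below the floor on every array and gives no difference.

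Tcf7l1, a TCF factor that mainly represses targets, read 540.6 and 274.6 in MMTV-PPARδ on GW501516 and on chow, and 635.1 and 598.8 in wild type on GW501516 and on chow, 2.18-fold lower in MMTV-PPARδ than in wild type on chow. Its other probe set read 511.3 and 460.2 in MMTV-PPARδ and 430.5 and 483.8 in wild type, a log2 difference of -0.07 in the same comparison. The sets disagree, and their mean gave -0.60. Tcf7l2, a TCF factor known from gut and metabolic tissues, stayed between 389.8 and 555.7. Lef1, a TCF factor of T cells and of hair and mammary buds, was listed at 0.5 and 16.1 in MMTV-PPARδ on GW501516 and on chow, and at 1.0 and 38.4 in wild type on GW501516 and on chow. T cell markers were highest on the same array, with a summed intensity of 5352 in wild type on chow and of 445.8 to 1791 on the others, and with Cd4 below the floor on every array.

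Set against the background of each comparison, the measured genes divide as follows. For the transgene on GW501516, Wif1 was at least 2-fold higher and Wnt5b lower, which is 2 of 19 against 4.01% of all measured genes (2.82% higher and 1.19% lower). On chow, Wif1 and Wnt5b were higher and Wnt2, Wnt5a, Sfrp4 and Tcf7l1 lower, 6 of 19 against 9.16% (5.46% higher and 3.70% lower). For GW501516 in MMTV-PPARδ mice, Frzb and Wnt5a were higher and Wnt5b, Wif1 and Dkk3 lower, 5 of 19 against 8.05% (3.98% higher and 4.07% lower). In wild type, Frzb and Sfrp2 were higher and none was lower, 2 of 19 against 6.43% (3.18% higher and 3.25% lower). The median log2 difference of the 19 genes was -0.07, 0.13, 0.00033 and 0.18 in that order of comparisons, beside 0.0016, 0.020, -0.034 and -0.037 over all measured genes.

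The GW501516 effect differed between the genotypes by at least 2-fold for 3 of the 19 genes, against 9.66% of all measured genes (4.42% higher and 5.25% lower), and in each the log2 effect in MMTV-PPARδ mice was the lower one. The log2 difference of effects was -2.82 for Wnt5b, -1.47 for Wif1 and -1.25 for Dkk3. These genes had their highest intensity on the MMTV-PPARδ chow array, and this difference has no error term in a design of 1 array per group. Frzb had -0.23 and Sfrp2 -0.53. With arrays shifted to a common median or quantile normalised, 4 genes were counted, these 3 and Sfrp4 on the higher side.

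**Figure D4:**
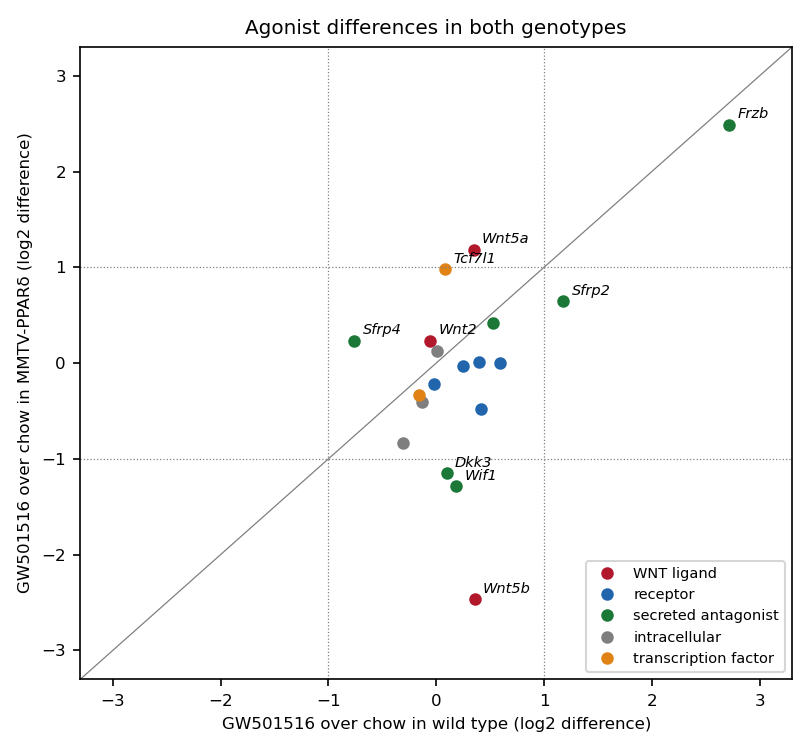
GW501516 over chow in MMTV-PPARδ (vertical axis) against wild type (horizontal axis), as log2 differences of the 19 measured genes coloured by role; dotted lines mark 2-fold and the diagonal equal differences. Frzb lies at the upper right (2.72, 2.49), and Wnt5b, Wif1 and Dkk3 lie below -1 in MMTV-PPARδ but between 0.10 and 0.36 in wild type.

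Further lists of the pathway, none of whose genes is among the 48, were read beside them. The WNT machinery list, which holds secretion factors, Dishevelled, the β-catenin destruction complex and co-repressors, had 23 measured genes. Of these, 1 was at least 2-fold apart for the transgene on chow, against 9.16% of all measured genes. This was Rnf43, a ligase that removes Frizzled from the cell surface and is itself a β-catenin target. It read 103.5 in MMTV-PPARδ and 53.4 in wild type on GW501516, and 147.9 in MMTV-PPARδ and 50.7 in wild type on chow, 2.92-fold higher. Tle4, a Groucho co-repressor, read 292.9 and 617.6 in MMTV-PPARδ on GW501516 and on chow, 2.11-fold lower on GW501516. In wild type it read 288.5 and 462.5, 1.60-fold lower on GW501516. No other measured gene of that list reached 2-fold in any of the 4 comparisons. None of the 6 measured planar cell polarity genes reached 2-fold in them either.

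Of the 14 measured genes on the list of WNT targets and feedback regulators, 5 were at least 2-fold higher in MMTV-PPARδ than in wild type on chow and 1 was lower, against 5.46% and 3.70% of all measured genes. The higher ones were Tnfrsf19, a TNF receptor superfamily member (217.5 against 47.5), Sox9, a progenitor transcription factor (412.9 against 92.5), and Myc, the growth regulator (1540 against 481.9). Also higher were Id2, an inhibitor of helix-loop-helix factors (3551 against 1236), and Ccnd1, cyclin D1 (3164 against 1320). Ccn5, a matricellular protein, was lower (100.3 against 430.3). In the same pools Axin2 stood at 158.5 against 163.9, and Rnf43 of the machinery list at 147.9 against 50.7. Most of the target genes have many other regulators, and the part of β-catenin in their values was not tested.

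On GW501516, Id2 (1917 in MMTV-PPARδ against 893.0 in wild type) and Ccnd1 (2914 against 1423) were still at least 2-fold higher and Ccn5 lower (231.9 against 469.8), while Myc, Sox9 and Tnfrsf19 differed by 1.21-fold or less. For GW501516 in MMTV-PPARδ mice, Sox9, Myc and Tnfrsf19 were at least 2-fold lower and Ccn5 higher, and for GW501516 in wild type none of the 14 reached 2-fold. Cell cycle markers had a median of 0.87 and immediate early genes of 0.75 (log2) for the transgene on chow, and -0.16 and -0.89 for GW501516 in MMTV-PPARδ mice. The part of these lists and of the array's low control values in the target genes was not tested.

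**Figure D5:**
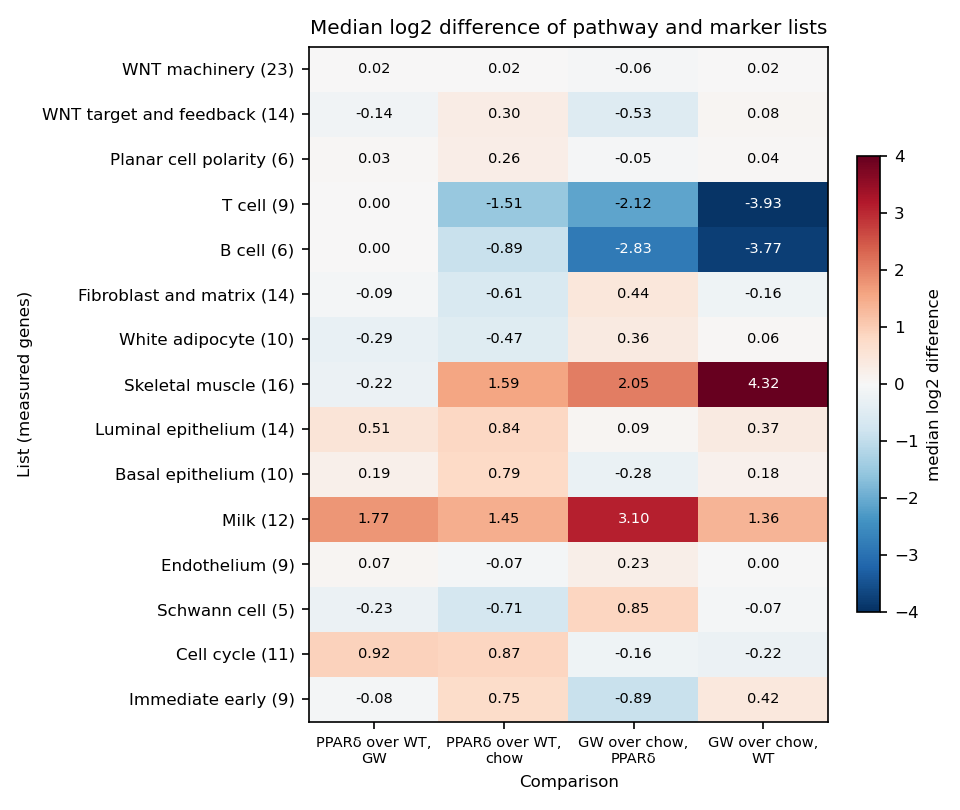
Median log2 difference of each pathway or marker list with at least 5 measured genes (rows, number of measured genes in brackets) in the 4 comparisons (columns). The WNT machinery list stays between -0.06 and 0.02, the WNT target list between -0.53 and 0.30, and the skeletal muscle list reaches 4.32 for GW501516 in wild type.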

How the data were processed

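RNA pools were measured on Affymetrix mouse arrays, 1 per group. Per the labels' protocols, biotin-labelled cRNA was prepared from 6 µg of RNA. The deposited values are probe set intensities on a linear scale; how probes were summarised, and the genome build, are not given in the sources used here. On all arrays the mean without the lowest and highest 2% was 500.2, so each had been scaled to a common value.

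Probe sets were named through the platform's table, and symbols were brought up to date from RefSeq gene IDs: 20380 had 1 symbol (20351 matched), 691 several and 1606 none listed; 64 control probe sets named no gene. For each gene the probe set with the highest mean was kept, values were floored at 20.5 (25th percentile) and genes reaching 139.0 on at least 1 array were measured. Log2 differences were counted at 2-fold, without tests. By rule, measured genes at least 2-fold apart in a comparison are given on every array, other measured genes by range and unmeasured ones by name, with up to 4 genes per list in a comparison. Chosen after their values were seen were the per-array values of Fzd6, Fzd7, Axin2, Ctnnb1 and unmeasured genes, the ranges of unmeasured genes, and Id2 and Ccnd1 on chow. Also outside the rule are the fold differences of Fzd4 and Sfrp1, Krt7 and Krt19 on chow, and Myc, Sox9 and Tnfrsf19 on GW501516. The genes and lists were chosen with earlier results of these data known. Steps were tested on simulated data (Python 3.11.15, numpy 2.4.6, pandas 2.3.3). Alternatives were scaling, floor, filter and probe set choice. The number of arrays limits all precision.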

Additional observations from a re-analysis of the deposited data

Results flagged for a closer look

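Wnt5b differed in opposite directions between the genotypes on the 2 diets, with a log2 difference (MMTV-PPARδ over wild type) of -1.14 on GW501516 and 1.68 on chow. The difference between these values was not tested, since each group is 1 array, and the chow value rests on the MMTV-PPARδ chow array, whose BioB and Gapdh controls read low.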

How the results depend on the processing

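No paired analysis was possible because each group is 1 array and the result comes from no test. Leaving out the MMTV-PPARδ chow array, chosen after seeing the data, left 4 of 19 genes at least 2-fold apart in a comparison, in place of 9, because 2 of the 4 comparisons were dropped. Percentages in brackets are the share of all genes at least 2-fold apart under the same setting. With a floor at the 40th percentile, 1 gene was counted for the transgene on GW501516 (3.73%), in place of 2. Without a filter, 6 of 48 genes were counted in the difference of GW501516 effects (9.35%), in place of 3 of 19. With the stricter filter, which kept 15 genes, 3 were counted for GW501516 in MMTV-PPARδ (7.04%) in place of 5 and 1 in wild type (5.57%) in place of 2. Without probe sets whose IDs end in _s_at, _x_at or _a_at, which leaves out Wnt5b and Wif1, 0 were counted for the transgene on GW501516 (4.09%) in place of 2, 4 for the transgene on chow (9.45%), all lower, in place of 2 higher and 4 lower, 3 for GW501516 in MMTV-PPARδ (8.04%) in place of 5, and 1 in the difference of effects (10%) in place of 3. The filters and the choice of probe sets changed how many genes were read, and the higher floor raised low values. With arrays shifted to a common median or quantile normalised, 6 were counted for GW501516 in MMTV-PPARδ (7.89% under both) in place of 5, Tcf7l1 being added at 1.05 (log2). With the mean over probe sets, 4 were counted for the transgene on chow (7.99%) in place of 6. Of 350 differences of the 9 named genes under the alternatives, 343 moved by less than the scatter between probe sets, 7 moved by more and none of at least 2-fold changed sign. Much of the 343 was fixed in advance and says nothing about stability. No filter, the stricter filter and a floor at the 10th percentile, with 45 differences each, could not change these values. The 35 left without the named ID endings used the same probe sets as before. The mean over probe sets could not move genes with a single set.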
